A study of Homo sapiens with 12 samples.

Results

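The 10 genes described here belong to the epithelial junction, CLDN1, CLDN3, CLDN4, CLDN7, CLDN12, OCLN, TJP1, F11R, NECTIN1 and NECTIN4. They were taken by name as tight junction and nectin adhesion genes, with earlier results of these data known, and all 10 were found by Ensembl ID among the 20738 gene IDs of the deposited table. The study asked which genes near super-enhancers of HPV+ squamous carcinomas of the head and neck (HNSCC) depend on bromodomain proteins, and for this it sequenced total RNA of 2 established HPV+ HNSCC cell lines. The 4 groups were UPCI-SCC-090 with JQ1, UPCI-SCC-090 with DMSO, UM-SCC-47 with JQ1 and UM-SCC-47 with DMSO, each with 3 libraries. JQ1, a small-molecule bromodomain inhibitor, was given at 500 nM, and the control cells received 0.1% DMSO, both for 72 h. Each line comes from a single tumor and was grown alone in culture, without stroma or immune cells. The labels do not say that the 3 repeats were separate cultures, so p-values measure only the spread between these libraries, which may be technical.

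Tight junctions seal the space between epithelial cells near their apical edge. Claudins are membrane proteins whose strands form the seal, CLDN1, CLDN3, CLDN4 and CLDN7 being common in epithelia, while CLDN12 belongs to a more distant branch of the family. Occludin (OCLN) is a further strand protein, TJP1 encodes the scaffold ZO-1 that links the strands to actin, and F11R encodes the junctional adhesion molecule JAM-A. Nectins are immunoglobulin-like adhesion molecules that act at adherens junctions through afadin. NECTIN1 is also an entry receptor of herpes simplex virus, and NECTIN4 is a cell surface antigen of many carcinomas and the target of an antibody-drug conjugate.

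The promoter windows of CLDN4 and NECTIN4 are shown because these 2 genes had the largest rises with JQ1, and that of CLDN3 because it is the claudin gene nearest to CLDN4. They are RefSeq windows of 250 bases before to 50 after the start of the gene on GRCh38.p14, and 8 of the 10 genes had an entry in the table used. CLDN4 lies at chr7:73830746-73831045 on the plus strand, CLDN3 at chr7:73770221-73770520 on the minus strand and NECTIN4 at chr1:161089509-161089808 on the minus strand. Capitals mark matches on either strand to 6 motifs. The grainyhead-like motif was searched as AACCGGTT and the AP-2 motif as GCCNNNGGC. AP-1, the factor of the Jun and Fos family, was searched as TGANTCA. The E-box, which Snail and related repressors bind, was searched as CAGGTG. For Sp1, a common factor of promoters rich in GC, the letters were GGGCGG. The TATA box of core promoters was searched as TATAAA.
CLDN4: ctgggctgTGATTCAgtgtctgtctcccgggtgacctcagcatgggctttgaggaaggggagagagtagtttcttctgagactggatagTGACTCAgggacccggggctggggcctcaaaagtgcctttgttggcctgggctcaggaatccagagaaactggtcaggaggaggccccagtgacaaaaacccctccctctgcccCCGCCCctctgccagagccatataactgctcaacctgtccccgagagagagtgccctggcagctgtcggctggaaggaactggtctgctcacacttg
CLDN3: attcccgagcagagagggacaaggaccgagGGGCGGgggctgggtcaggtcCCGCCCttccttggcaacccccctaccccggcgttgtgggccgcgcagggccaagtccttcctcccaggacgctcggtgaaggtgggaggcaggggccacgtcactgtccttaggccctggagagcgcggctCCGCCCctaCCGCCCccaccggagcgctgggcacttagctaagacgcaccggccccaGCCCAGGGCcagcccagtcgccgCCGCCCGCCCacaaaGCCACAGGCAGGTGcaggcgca
NECTIN4: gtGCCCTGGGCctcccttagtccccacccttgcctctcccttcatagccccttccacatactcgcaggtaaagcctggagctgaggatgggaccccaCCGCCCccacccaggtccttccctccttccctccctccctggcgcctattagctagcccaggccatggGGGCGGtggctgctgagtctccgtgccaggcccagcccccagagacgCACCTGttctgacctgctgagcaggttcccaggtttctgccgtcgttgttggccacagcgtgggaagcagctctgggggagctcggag
The CLDN4 window held 2 AP-1 matches and 1 Sp1 match, and 7.71% of all 35116 windows held an AP-1 match. NECTIN4 held 1 AP-2 match, 1 E-box match and 2 Sp1 matches, which occurred in 23.2%, 20.6% and 45.0% of all windows. In CLDN3 were 2 AP-2 matches, 1 E-box match, which overlaps the second AP-2 match, and 6 Sp1 matches. CpG dinucleotides numbered 5 in the CLDN4 window, 10 in NECTIN4 and 24 in CLDN3. The grainyhead-like letters, present in 0.134% of all windows, and those of the TATA box, in 11.5%, had no match in these 3 windows. A match describes the letters only, and no binding was measured here.

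Levels are given as CPM, the estimated counts of a gene relative to the TMM-scaled total of its library. Total estimated counts ranged from 20349275 to 30788657 per library. In all, 3 libraries stood apart by a trend of their counts with GC content, taken from the longest transcript of each gene. For each 10 points of GC percentage, UPCI-SCC-090 JQ1 replicate 3 had a slope of −0.73 log2 units, UPCI-SCC-090 DMSO replicate 2 one of 0.66 and UM-SCC-47 JQ1 replicate 3 one of −0.51, against −0.27 to 0.43 in the other 9. Squamous and simple epithelial markers were present in both lines, although KRT14, a keratin of basal squamous cells, was at most 1.87 CPM in every UPCI-SCC-090 library. The summed squamous markers were 12448 to 19474 CPM with JQ1 and 4772 to 6826 CPM with DMSO in UPCI-SCC-090, and 2507 to 3469 CPM against 2022 to 2099 CPM in UM-SCC-47. Of the 8 squamous markers, 3 were called higher and 0 lower in UPCI-SCC-090 (0 lower also at an unadjusted p under 0.05 and by DESeq2). In UM-SCC-47 they went both ways, with 4 lower (TP63, KRT5, KRT15 and KRT6A), 2 higher (KRT14 and KRT17) and a median log2 fold change of −0.24. Over all genes tested, 7.67% were higher and 20.4% lower in UPCI-SCC-090, and 16.1% higher and 25.5% lower in UM-SCC-47. With so few markers, these counts say little about the list. The summed simple epithelial markers were 10710 to 19024 CPM with JQ1 and 3688 to 6119 CPM with DMSO in UPCI-SCC-090, and 41028 to 61682 CPM against 11096 to 13404 CPM in UM-SCC-47. These sums moved with the treatment, and their part in the results below was not tested. Endothelial markers summed to at most 8.26 CPM and fibroblast markers to at most 30.7 CPM in any library, and MS4A1 of B cells was at 0 throughout. In bulk RNA, fewer cells expressing a gene and less of its RNA per cell cannot be told apart.

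**Figure D1:**
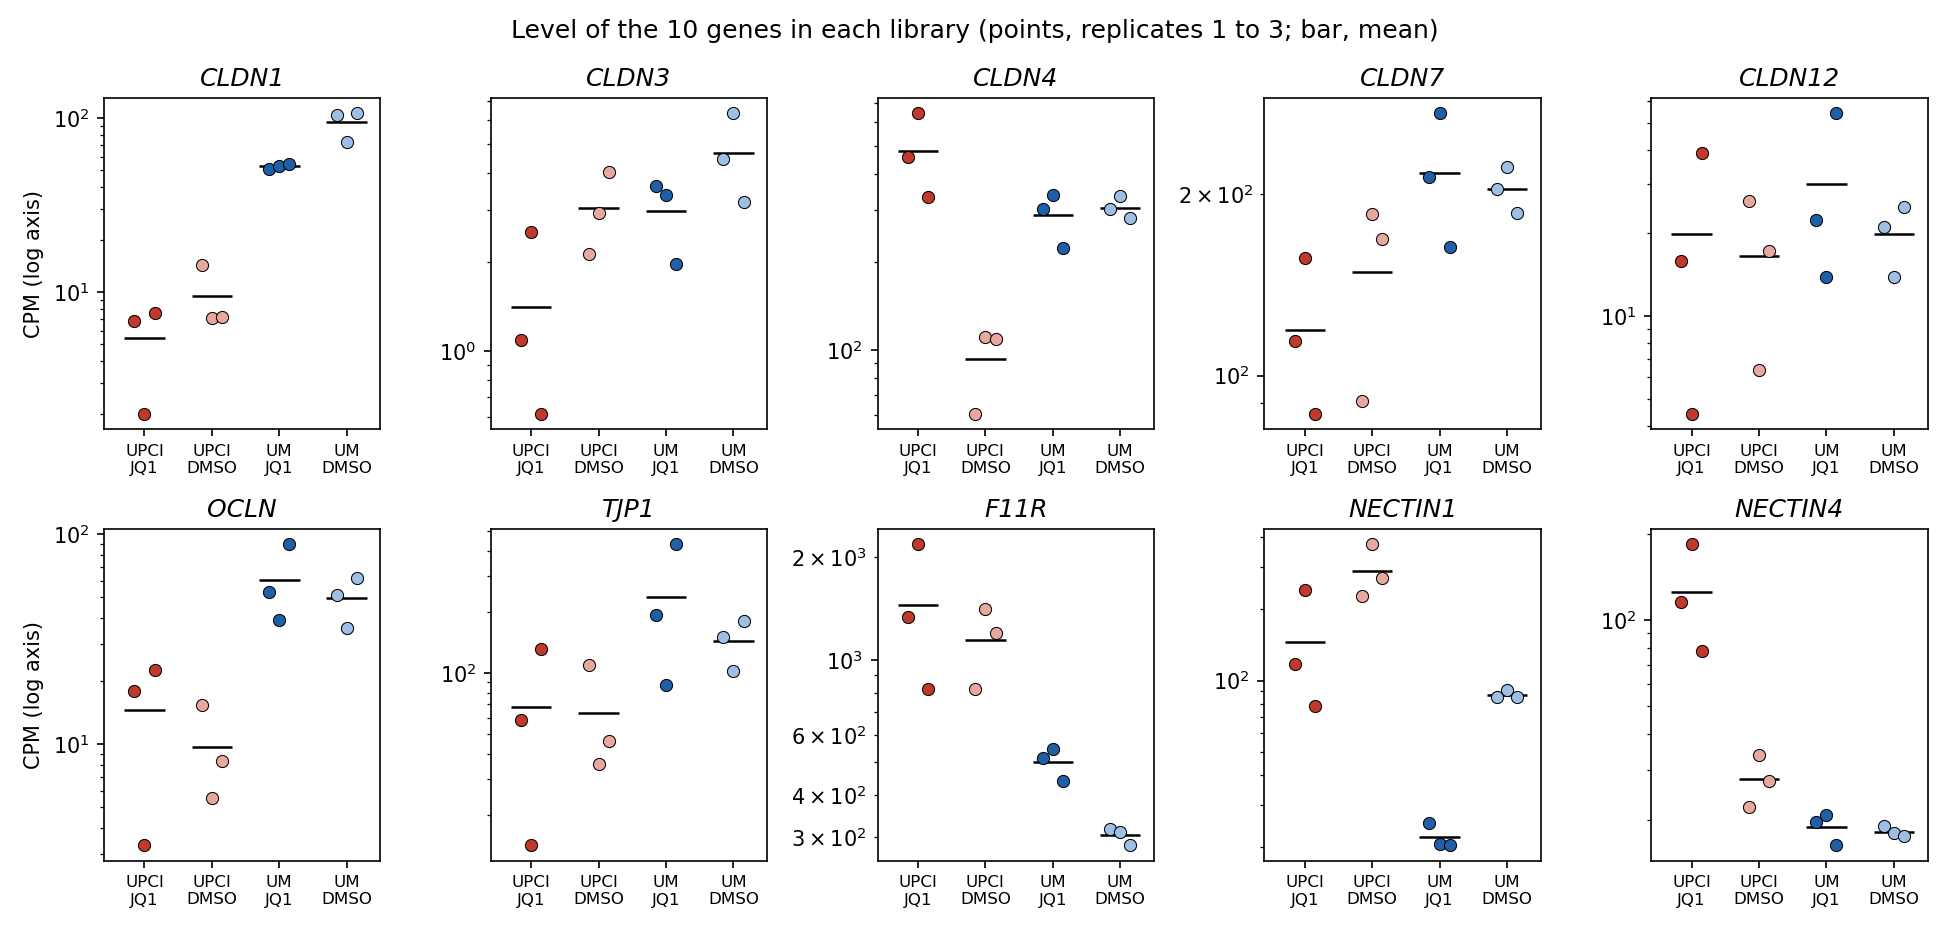
Level of each of the 10 genes in CPM (log axis) in the 12 libraries, with JQ1 left of DMSO in each line (UPCI, UPCI-SCC-090; UM, UM-SCC-47), points for the libraries and bars for the means. CLDN4 and NECTIN4 of UPCI-SCC-090 lay at 333 to 646 and 77.9 to 184 CPM with JQ1, above 60.2 to 111 and 22.2 to 33.9 CPM with DMSO.

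In UPCI-SCC-090 the JQ1 comparison turned on 1 claudin and 1 nectin. CLDN4 and NECTIN4 rose, each with no overlap between the groups, and the other 8 genes were not called. All 10 genes passed the filter on low counts in each comparison. Thus 2 of 10 were called higher and 0 of 10 lower (edgeR, adjusted p under 0.05), where 7.67% of the 13150 genes tested were higher and 20.4% lower. DESeq2 also called 0 lower, and at an unadjusted p under 0.05 edgeR had 2 lower, NECTIN1 and CLDN3. The median log2 fold change of the 10 genes was 0.13, and that of all genes tested was −0.14.

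CLDN4 (ENSG00000189143), on chromosome 7 from 73213872 to 73247020 in GRCh37, encodes a claudin that restricts the passage of sodium and also binds Clostridium perfringens enterotoxin. In UPCI-SCC-090 it stood at 456, 646 and 333 CPM with JQ1, against 60.2, 111 and 109 CPM with DMSO. The lowest JQ1 library was thus above the highest DMSO library, and the ratio of the means was 5.13. The log2 fold change was 2.23 ± 0.29 (SE, n = 3 each, edgeR adjusted p = 0.0043). Over 16 alternative settings it ranged from 2.03 to 2.75 and was called in every one of them.

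NECTIN4 (ENSG00000143217, chromosome 1 from 161040788 to 161059348) rose to 116, 184 and 77.9 CPM in UPCI-SCC-090 with JQ1, against 22.2, 33.9 and 27.4 CPM with DMSO. Again the groups did not overlap, and the ratio of the means was 4.53. Its log2 fold change was 2.04 ± 0.31 (SE, n = 3 each, edgeR adjusted p = 0.0053), with a range of 1.83 to 2.64 over the same alternatives, all of them called. In replicate 2 with JQ1 both CLDN4 and NECTIN4 were highest, and in replicate 3, the library with the steepest GC trend, both were lowest of that group. With a correction for GC content the log2 fold changes were 2.64 ± 0.21 for CLDN4 and 2.28 ± 0.17 for NECTIN4, larger than without it.

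NECTIN1 (ENSG00000110400, chromosome 11 from 119494120 to 119599910) did not pass in this line. It had 117, 240 and 78.2 CPM with JQ1 and 225, 373 and 269 CPM with DMSO, so that replicate 2 with JQ1 lay inside the DMSO range. The log2 fold change of −1.15 ± 0.37 (SE, n = 3 each) had an edgeR adjusted p of 0.060. This call depended on the setting, since NECTIN1 was called lower in 6 of 16 alternatives, among them the fit without UPCI-SCC-090 JQ1 replicate 2 (−1.53, adjusted p = 0.013) and the GC correction (−0.69, adjusted p = 0.014). CLDN3, listed at 0.614 to 4.04 CPM in this line, had 1.09, 2.52 and 0.614 CPM with JQ1 against 2.13, 2.93 and 4.04 CPM with DMSO. Its log2 fold change was −1.28 ± 0.50 (edgeR adjusted p = 0.10), and it too passed without JQ1 replicate 2 (−1.80, adjusted p = 0.028). These 2 genes moved the other way from CLDN4 and NECTIN4 in their estimates, without passing the test.

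The remaining genes of UPCI-SCC-090 had overlapping groups. CLDN7, a claudin of lateral membranes, had 114, 157 and 86.3 CPM with JQ1 and 90.8, 185 and 169 CPM with DMSO. F11R, the most abundant of the 10, had 1336, 2187 and 821 CPM with JQ1 and 823, 1412 and 1198 CPM with DMSO. Neither was called, with log2 fold changes of −0.44 and 0.19 and edgeR adjusted p-values of 0.33 and 0.71. CLDN1 was at 6.80, 1.98 and 7.60 CPM with JQ1 and at 14.3, 7.09 and 7.14 CPM with DMSO, with a log2 fold change of −0.87 ± 0.64 that passed only in fits with the GC correction (−1.22, edgeR adjusted p = 0.025). TJP1 had 58.7, 14.1 and 131 CPM with JQ1 against 109, 35.7 and 46.0 CPM with DMSO, a 9.33-fold spread within the JQ1 libraries alone. OCLN and CLDN12 were spread in the same way, with 3.29 to 22.6 and 4.40 to 39.1 CPM with JQ1 against 5.56 to 15.3 and 6.35 to 26.0 CPM with DMSO.

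**Figure D2:**
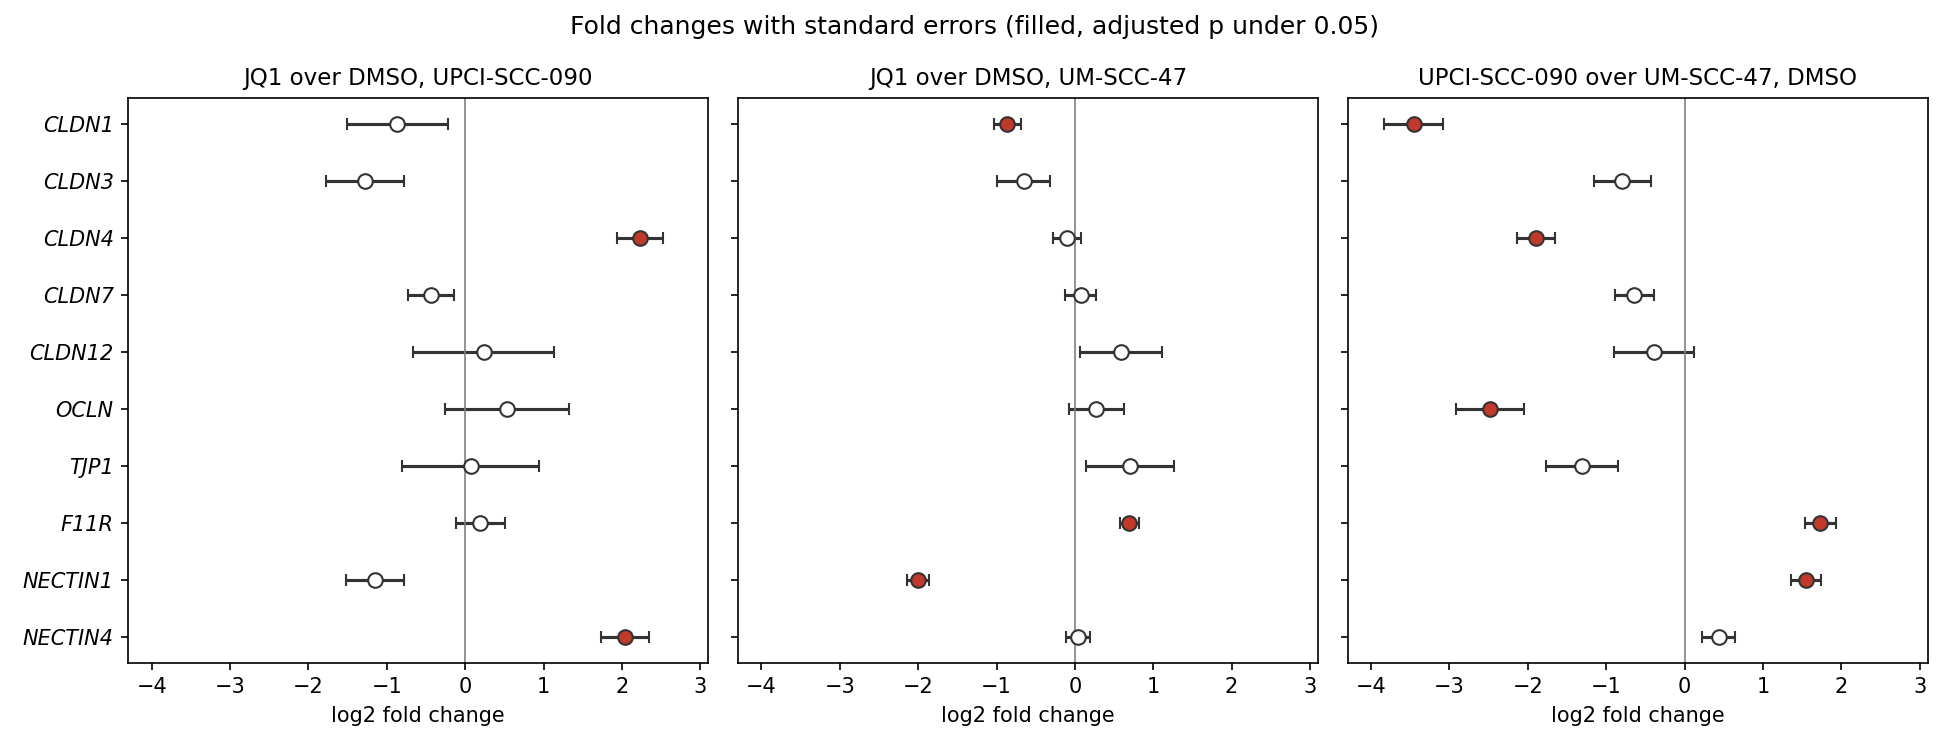
Log2 fold changes (horizontal axis) with standard errors for the 10 genes in 3 comparisons (JQ1 over DMSO in each line, and UPCI-SCC-090 over UM-SCC-47 with DMSO), filled where the edgeR adjusted p was under 0.05. CLDN4 (2.23) and NECTIN4 (2.04) are the filled points for JQ1 in UPCI-SCC-090, and NECTIN1 (−1.998), CLDN1 (−0.86) and F11R (0.70) those in UM-SCC-47.

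In UM-SCC-47 other genes were called. NECTIN1 and CLDN1 fell and F11R rose, each with no overlap between the groups, while CLDN4 and NECTIN4 stayed within the range of the controls or near it. The counts were 2 of 10 lower and 1 of 10 higher, where 25.5% of the 13440 genes tested were lower and 16.1% higher. DESeq2 gave the same counts. The median log2 fold change of the 10 genes was 0.06, against −0.03 for all genes tested.

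NECTIN1 fell to 25.2, 20.6 and 20.3 CPM in UM-SCC-47 with JQ1, against 85.3, 91.2 and 85.3 CPM with DMSO. The libraries of each group were close to one another, and the mean with JQ1 was 0.253 times that with DMSO. The log2 fold change was −1.998 ± 0.14 (SE, n = 3 each, edgeR adjusted p = 2.3e-04), and it was called in all 16 alternatives.

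CLDN1 (ENSG00000163347, chromosome 3 from 190023496 to 190040235) encodes a claudin needed for the barrier of the skin. It fell to 50.7, 53.3 and 54.3 CPM with JQ1, against 105, 73.3 and 107 CPM with DMSO. The log2 fold change was −0.86 ± 0.17 (SE, n = 3 each, edgeR adjusted p = 0.0088). F11R (ENSG00000158769, chromosome 1 from 160965001 to 160991133) rose to 512, 545 and 439 CPM with JQ1, against 318, 312 and 284 CPM with DMSO. Its log2 fold change was 0.70 ± 0.13 (SE, n = 3 each, edgeR adjusted p = 0.0056). Both calls held in 15 of 16 alternatives and were lost in 1 fit over the 12 libraries (edgeR adjusted p = 0.18 for CLDN1 and 0.12 for F11R). In that fit the UPCI-SCC-090 libraries entered the filter, the scaling and the estimate of the spread. Which of these mattered was not tested. F11R shares its strand and much of its length with an unnamed gene, ENSG00000270149, which averaged 184 CPM with JQ1 and 94.1 CPM with DMSO, so the division of reads between them is uncertain.

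The claudin and nectin that rose in UPCI-SCC-090 were not called here. CLDN4 had 302, 339 and 224 CPM with JQ1 and 303, 335 and 282 CPM with DMSO, and its log2 fold change was −0.10 ± 0.18 (edgeR adjusted p = 0.67). NECTIN4 had 19.7, 20.8 and 16.3 CPM with JQ1 and 19.1, 18.1 and 17.6 CPM with DMSO, and its log2 fold change was 0.04 ± 0.16 (edgeR adjusted p = 0.86). Their groups overlapped. CLDN7 was at 214, 272 and 163 CPM with JQ1 and at 204, 222 and 186 CPM with DMSO. TJP1 had 193, 87.2 and 431 CPM with JQ1 and 151, 102 and 180.0 CPM with DMSO, the highest value being that of JQ1 replicate 3, the UM-SCC-47 library with the steep GC trend. OCLN, CLDN12 and CLDN3 ranged over 38.9 to 89.6, 13.8 to 54.5 and 1.97 to 3.60 CPM with JQ1, against 35.6 to 62.1, 13.8 to 24.8 and 3.18 to 6.36 CPM with DMSO, and none of them was called.

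Whether the 2 lines responded differently was tested as the interaction of line and treatment, given as the log2 fold change of UPCI-SCC-090 minus that of UM-SCC-47. CLDN4 and NECTIN4 differed, both with the larger fold change in UPCI-SCC-090. The difference was 2.45 ± 0.42 for CLDN4 (edgeR adjusted p = 0.0059) and 2.13 ± 0.42 for NECTIN4 (edgeR adjusted p = 0.012), with 3 libraries in each of the 4 groups. Both were called in all 21 alternatives. So 2 of 10 genes were called higher and 0 of 10 lower, where 2.93% of the 14396 genes tested were higher and 3.63% lower. The count of 0 lower was also 0 with DESeq2 and at an unadjusted p under 0.05 in edgeR. For the genes called only in UM-SCC-47 the difference between the lines did not pass. It was 0.99 ± 0.49 for NECTIN1 (edgeR adjusted p = 0.30), 0.05 ± 0.62 for CLDN1 (0.99) and −0.37 ± 0.44 for F11R (0.74). NECTIN1 passed this test with the GC correction (1.08 ± 0.22, adjusted p = 0.0069). With that correction 1480 genes were lower and 1031 higher over all genes, against 523 and 422 without it. Hence only CLDN4 and NECTIN4 were shown to respond unlike in the 2 lines in the fit as designed, and the calls of CLDN1 and F11R in UM-SCC-47 alone are not evidence of such a difference.

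Without JQ1, the lines already differed in 5 of the 10 genes. With DMSO, UPCI-SCC-090 had less CLDN1, CLDN4 and OCLN and more F11R and NECTIN1 than UM-SCC-47. These were 3 of 10 lower and 2 of 10 higher, where 25.3% of the 14108 genes tested were lower and 22.7% higher. The median log2 fold change was −0.72 for the 10 genes and −0.01 for all genes tested. With 1 line on each side, a property of the line and of its culture or library handling cannot be told apart.

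CLDN1 showed the widest gap, with 14.3, 7.09 and 7.14 CPM in UPCI-SCC-090 with DMSO against 105, 73.3 and 107 CPM in UM-SCC-47 with DMSO. The log2 fold change was −3.46 ± 0.37 (SE, n = 3 each, edgeR adjusted p = 2.2e-04). OCLN followed with 15.3, 5.56 and 8.30 CPM against 51.2, 35.6 and 62.1 CPM (−2.48 ± 0.44, edgeR adjusted p = 0.0026). OCLN has partial copies elsewhere on chromosome 5, which makes its estimated counts less certain. CLDN4 had 60.2, 111 and 109 CPM in UPCI-SCC-090 against 303, 335 and 282 CPM in UM-SCC-47 (−1.90 ± 0.24, edgeR adjusted p = 4.9e-04). None of these groups overlapped.

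F11R had 823, 1412 and 1198 CPM in UPCI-SCC-090 with DMSO, against 318, 312 and 284 CPM in UM-SCC-47 with DMSO (1.73 ± 0.20, edgeR adjusted p = 3.1e-04). NECTIN1 had 225, 373 and 269 CPM against 85.3, 91.2 and 85.3 CPM (1.55 ± 0.19, edgeR adjusted p = 4.2e-04). For F11R and NECTIN1, too, the groups did not overlap. TJP1 fell just short, with a log2 fold change of −1.31 ± 0.46 and an edgeR adjusted p of 0.0503, and it was called lower in 8 of 16 alternatives, among them DESeq2 (adjusted p = 0.0051) and the fit without UPCI-SCC-090 DMSO replicate 1 (−1.80, adjusted p = 0.0025). NECTIN4 was not called (0.43, edgeR adjusted p = 0.13), although its groups did not overlap, and it was called higher in 4 of 16 alternatives, among them the fit without the same library (0.75, adjusted p = 0.0082). CLDN7 (−0.64, edgeR adjusted p = 0.072), whose groups did not overlap either, was called lower in 4 of 16. Among these was the fit without UPCI-SCC-090 DMSO replicate 2 (−0.78, edgeR adjusted p = 0.035). How many of all genes had groups without overlap was not counted in any comparison. CLDN3 (−0.79, edgeR adjusted p = 0.11) was called in 0 of 16 alternatives, and CLDN12 (−0.39, edgeR adjusted p = 0.56) in 2, both with the GC correction.

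JQ1 and the baseline thus ran opposite for CLDN4. Its level in UPCI-SCC-090 with JQ1, 333 to 646 CPM, overlapped that of UM-SCC-47 with JQ1, 224 to 339 CPM, whereas with DMSO it was below that of UM-SCC-47. For NECTIN4 the values with JQ1 were 77.9 to 184 CPM in UPCI-SCC-090 and 16.3 to 20.8 CPM in UM-SCC-47, a ratio of the means of 6.65, against 1.52 with DMSO. These comparisons between the JQ1 groups are a description without a test.

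To compare levels between genes, CPM were divided by the length in kb of the union of each gene's exons. F11R led in UPCI-SCC-090, with a mean of 286 CPM per kb with JQ1 and 226 CPM per kb with DMSO, and did not overlap the next gene in either group. CLDN4 stood next to F11R with JQ1, at 102 CPM per kb, without overlap with CLDN7 below it, and behind CLDN7 and NECTIN1 with DMSO, at 19.8 CPM per kb. With JQ1 CLDN7 (47.8), NECTIN4 (36.4) and NECTIN1 (18.6 CPM per kb) came next, and CLDN7 with NECTIN4 and NECTIN4 with NECTIN1 overlapped. With DMSO the genes after F11R were CLDN7 (59.5) and NECTIN1 (37.0 CPM per kb), which overlapped each other. The lowest in both groups of this line were CLDN12, CLDN1, CLDN3 and OCLN, with means of 0.863 to 2.95 CPM per kb.

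In UM-SCC-47 the order was F11R (98.5), CLDN7 (86.9) and CLDN4 (61.4 CPM per kb) with JQ1 and CLDN7 (81.8), CLDN4 (65.3) and F11R (60.2 CPM per kb) with DMSO. F11R with CLDN7 and CLDN7 with CLDN4 overlapped with JQ1, as did CLDN4 with F11R with DMSO. CLDN1 was at 14.5 CPM per kb with JQ1 and 26.2 CPM per kb with DMSO, and NECTIN1 at 2.82 CPM per kb with JQ1 and 11.2 CPM per kb with DMSO. The first places depended on the length used. By the MANE Select transcript, a choice added after the data were seen, CLDN4 led in both UM-SCC-47 groups, because this transcript of CLDN4 is 1.70 kb long and the exon union 4.70 kb. In UPCI-SCC-090 F11R still led by this length, but with JQ1 F11R (312) overlapped CLDN4 (282 CPM per kb). With DMSO CLDN4 (55.0) then stood ahead of NECTIN1 (48.6 CPM per kb), and CLDN4 overlapped both CLDN7 and NECTIN1.

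**Figure D3:**
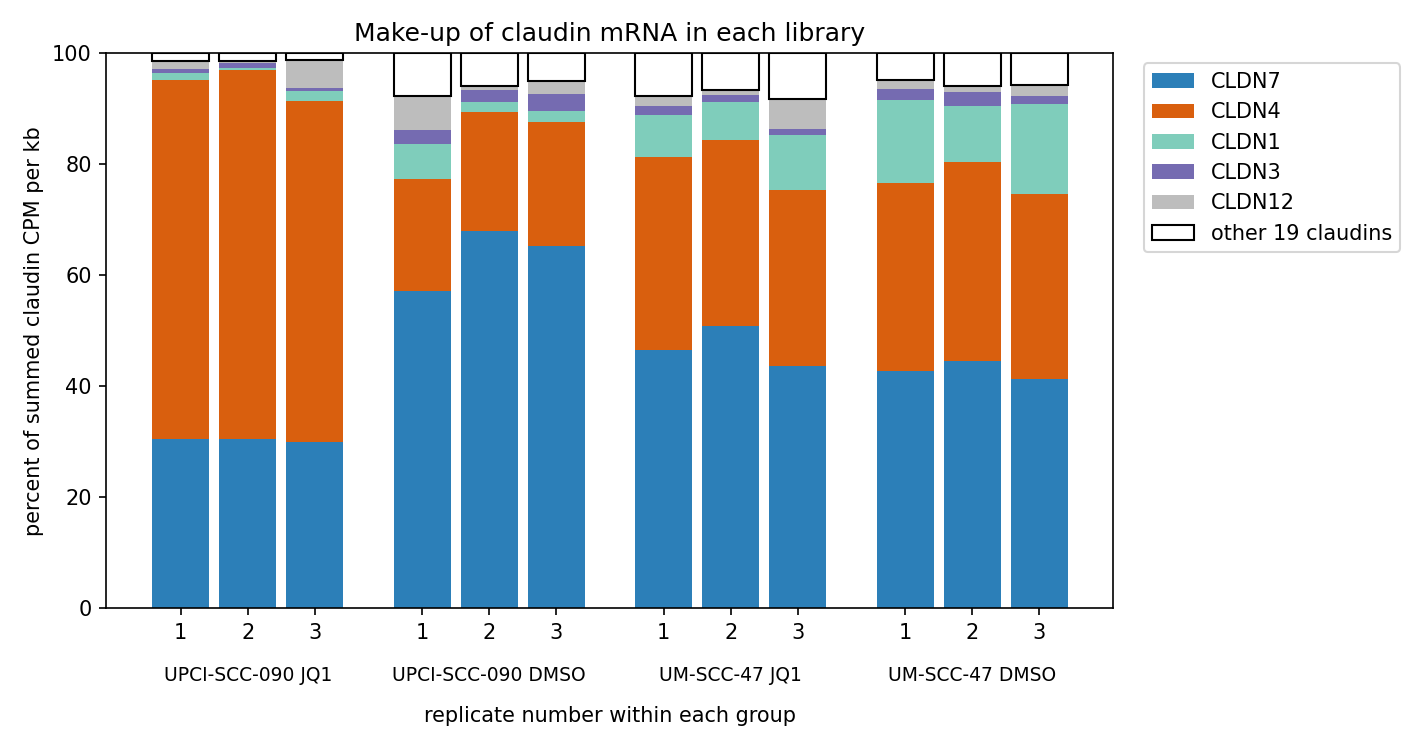
Share of the summed CPM per kb (exon union) of the 24 claudins in the table taken by CLDN7, CLDN4, CLDN1, CLDN3, CLDN12 and the other 19, for each library. CLDN4 takes 61.4 to 66.6% in UPCI-SCC-090 with JQ1 and 20.1 to 22.3% with DMSO, and 31.7 to 34.9% against 33.2 to 35.8% in UM-SCC-47.

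The table held 24 claudin genes, of which 15 stayed below a mean of 1 CPM in every group and 2 were at 0 in all libraries. Of the summed claudin CPM per kb, CLDN4 took 64.2% ± 2.59 in UPCI-SCC-090 with JQ1 and 21.3% ± 1.10 with DMSO (SD, n = 3 each). CLDN7 took 30.3% ± 0.285 with JQ1 and 63.4% ± 5.56 with DMSO. The leading claudin of this line was thus CLDN4 with JQ1 and CLDN7 with DMSO in each library. In UM-SCC-47 the shares of CLDN4 were 33.4% ± 1.59 with JQ1 and 34.2% ± 1.36 with DMSO, and those of CLDN1 8.12% ± 1.64 and 13.8% ± 3.28. With MANE Select lengths CLDN4 took 75.5% with JQ1 and 32.3% with DMSO in UPCI-SCC-090. The summed claudin level was 157 CPM per kb with JQ1 and 92.3 CPM per kb with DMSO in UPCI-SCC-090, and 183 CPM per kb against 190.4 CPM per kb in UM-SCC-47.

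**Figure D4:**
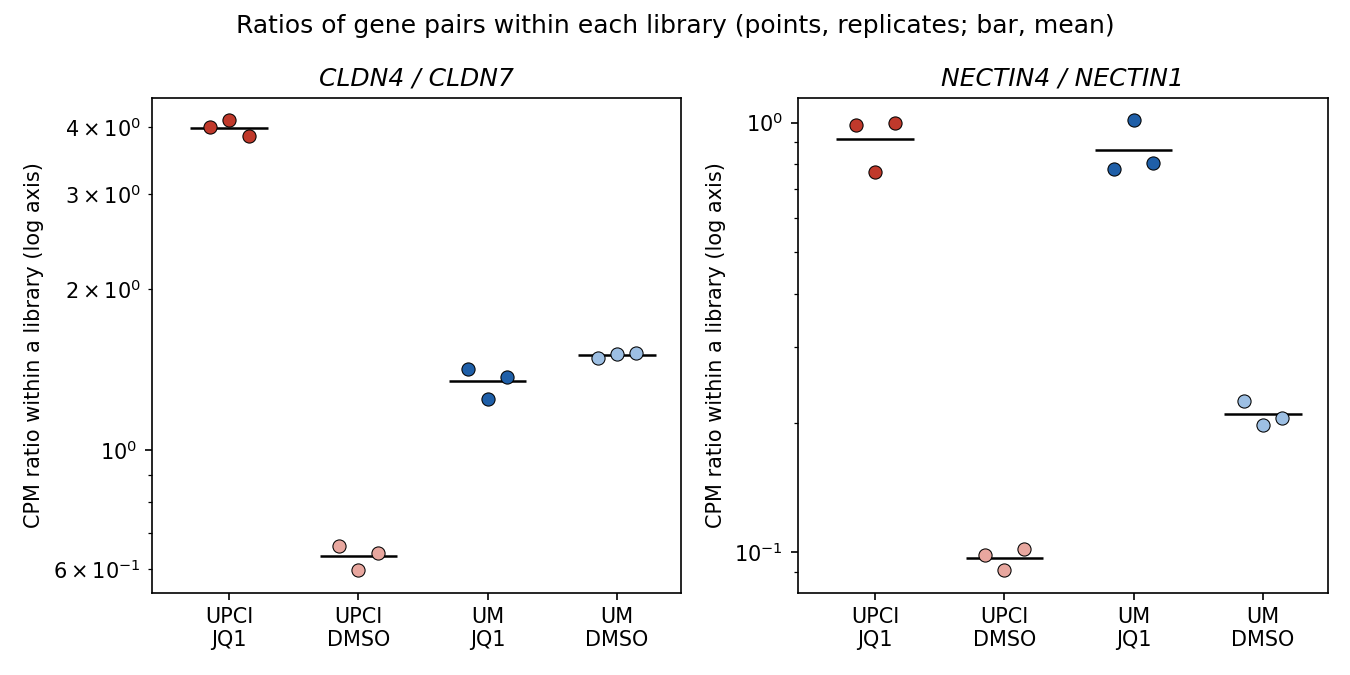
Ratio of CLDN4 to CLDN7 and of NECTIN4 to NECTIN1 in CPM (log axis) within each of the 12 libraries, with JQ1 left of DMSO in each line, points for libraries and bars for means. In UPCI-SCC-090 the ratio of CLDN4 to CLDN7 was 3.86 to 4.12 with JQ1 and 0.598 to 0.663 with DMSO.

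Ratios within a library do not depend on its scaling. The pairs shown were chosen after their values were seen and are given without a test. CLDN4 over CLDN7 was 3.999, 4.12 and 3.86 in UPCI-SCC-090 with JQ1, against 0.663, 0.598 and 0.644 with DMSO. In UM-SCC-47 it was 1.42, 1.24 and 1.37 with JQ1, against 1.48, 1.51 and 1.52 with DMSO. Its coefficient of variation was 3.24% in UPCI-SCC-090 with JQ1, where CLDN4 itself ranged from 333 to 646 CPM. NECTIN4 over NECTIN1 was 0.986, 0.768 and 0.996 in UPCI-SCC-090 with JQ1, against 0.0984, 0.0909 and 0.102 with DMSO. In UM-SCC-47 it was 0.780, 1.01 and 0.804 with JQ1, against 0.224, 0.198 and 0.206 with DMSO. The ratio of the nectins was thus higher with JQ1 in both lines, in UPCI-SCC-090 beside a rise of NECTIN4 and in UM-SCC-47 beside a fall of NECTIN1.

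**Figure D5:**
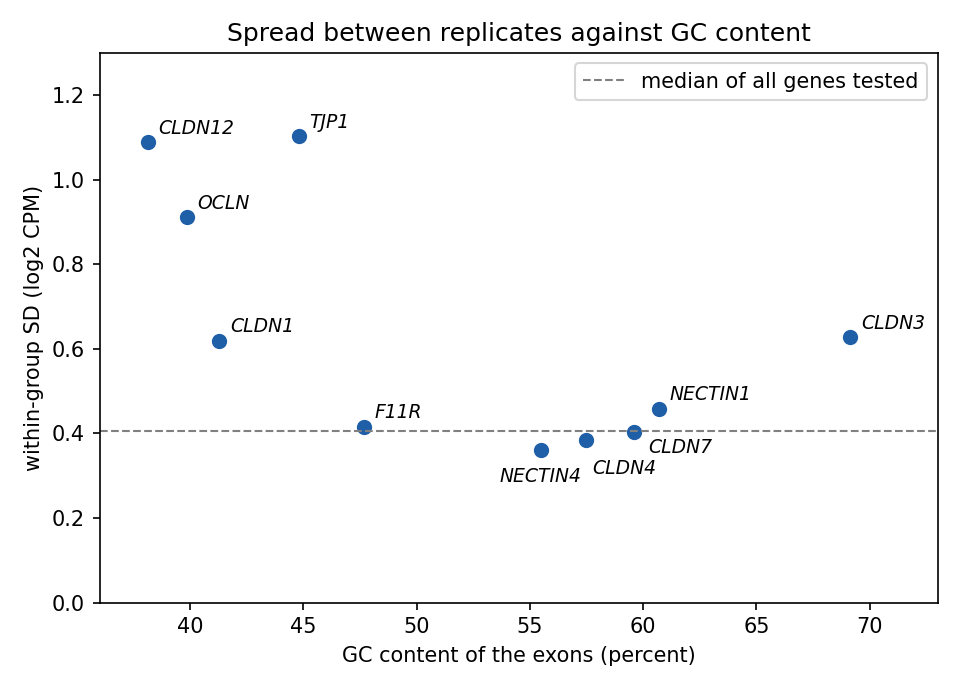
Pooled within-group SD of log2 CPM (vertical axis) against GC content in percent for the 10 genes, with the median of all genes tested as a dashed line. GC content is that of the longest transcript of each gene, although the axis label names the exons. TJP1, CLDN12 and OCLN, with GC of 38.1 to 44.8%, have SDs of 0.91 to 1.10, CLDN1, with 41.3%, has 0.62, and the genes of 47.7 to 60.7% GC lie between 0.36 and 0.46.

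The 10 genes differed in their spread between replicates. The pooled within-group SD on the log2 scale was 1.10 for TJP1, 1.09 for CLDN12 and 0.91 for OCLN, genes with 44.8, 38.1 and 39.9% GC in their longest transcripts. It was 0.36 for NECTIN4, 0.38 for CLDN4, 0.40 for CLDN7, 0.42 for F11R and 0.46 for NECTIN1, whose GC content was 47.7 to 60.7%, and the median of all genes tested was 0.41. CLDN1, whose 41.3% GC lies among those of the 3 most variable genes, had an SD of 0.62. CLDN3, with 69.2% GC and few reads (16 to 169 estimated counts per library), had an SD of 0.63. With a GC correction TJP1, CLDN12 and OCLN were still not called in either JQ1 comparison. Between the lines with DMSO, OCLN was called despite its spread, and CLDN7, near the median of all genes, was not.

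Further genes of the same junctions came from lists of known members. Of 29 other tight junction membrane and scaffold genes, 28 were tested in UPCI-SCC-090, with 6 lower and 0 higher (edgeR, and 1 higher both at an unadjusted p under 0.05 and by DESeq2), and 26 in UM-SCC-47, with 4 lower and 2 higher. Over all genes tested, 20.4% were lower and 7.67% higher in UPCI-SCC-090, and 25.5% lower and 16.1% higher in UM-SCC-47, so these counts do not set the list apart. Its median log2 fold changes were −0.44 in UPCI-SCC-090 and 0.22 in UM-SCC-47, against −0.14 and −0.03 for all genes tested. PARD6G, a polarity adaptor, fell in both lines, by 3.34 ± 0.36 on the log2 scale in UPCI-SCC-090 and by 1.39 ± 0.22 in UM-SCC-47 (edgeR adjusted p = 0.0037 and 0.0035). SYMPK, a protein of junction plaques and of mRNA 3′ end processing, also fell in both, by 1.88 ± 0.33 and 1.27 ± 0.16 (0.0085 and 0.0015). AMOTL2, an angiomotin relative, fell by 1.55 ± 0.35 in UPCI-SCC-090 (0.019), and rose in UM-SCC-47, with a log2 fold change of 0.98 ± 0.15 (0.0034). LSR, a protein of tricellular junctions, rose in UM-SCC-47 (0.77 ± 0.19, edgeR adjusted p = 0.017), where JAM3 (−1.70) and ESAM (−1.15), relatives of F11R, were the other 2 lower genes.

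Among the 19 other claudins only 3 were tested in UPCI-SCC-090 and 4 in UM-SCC-47. CLDN11 and CLDN23 fell in UPCI-SCC-090. CLDN11, the claudin of myelin and Sertoli cells, was at 1.24, 1.60 and 0.882 CPM with JQ1 against 4.96, 5.34 and 4.72 CPM with DMSO (−2.14 ± 0.29, edgeR adjusted p = 0.0046), and CLDN23 at 0.618, 0.726 and 0.345 CPM against 3.62, 5.38 and 4.91 CPM (−3.16 ± 0.34, edgeR adjusted p = 0.0037). Thus CLDN4 rose in the line in which 2 less abundant claudins fell. CLDN9 rose in UM-SCC-47, to 6.21, 6.13 and 4.80 CPM with JQ1, against 1.85, 2.63 and 2.01 CPM with DMSO (1.39 ± 0.22, edgeR adjusted p = 0.0037). The counts of other claudins called the other way were 0 in both lines, also at an unadjusted p under 0.05 and by DESeq2. Over all genes tested, 20.4% were lower and 7.67% higher in UPCI-SCC-090, and 25.5% lower and 16.1% higher in UM-SCC-47. With so few claudins tested, a count of 0 says little.

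Of 11 other nectin family genes and partners, 7 were tested in UPCI-SCC-090, where NECTIN2 alone was called. NECTIN2, which like NECTIN1 binds afadin, had 44.2, 75.7 and 30.9 CPM with JQ1 and 78.5, 139.9 and 110.0 CPM with DMSO (−1.26 ± 0.33, edgeR adjusted p = 0.031). DESeq2 did not call it. In UM-SCC-47, 6 were tested and 0 were called by edgeR or DESeq2, with 1 lower at an unadjusted p under 0.05. The ratio of NECTIN1 to NECTIN2, also chosen after its values were seen, was 0.337, 0.342 and 0.367 in UM-SCC-47 with JQ1 against 1.05, 1.01 and 1.15 with DMSO, and 2.66, 3.17 and 2.53 in UPCI-SCC-090 with JQ1 against 2.87, 2.67 and 2.45 with DMSO. Of the 7 classical cadherin junction genes, 3 rose in UPCI-SCC-090, namely CTNND1 (p120 catenin, 0.95 ± 0.15), CDH1 (E-cadherin, 0.79 ± 0.15) and CTNNB1 (beta-catenin, 0.78 ± 0.23), with edgeR adjusted p-values of 0.0065, 0.012 and 0.043. In UM-SCC-47 CTNNB1 rose (0.64 ± 0.13, edgeR adjusted p = 0.0084), and 0 were lower in either line, also at an unadjusted p under 0.05 and by DESeq2. For the nectin and the cadherin list alike, the shares over all genes tested were 20.4% lower and 7.67% higher in UPCI-SCC-090. In UM-SCC-47 they were 25.5% lower and 16.1% higher. With so few genes in these lists, a count of 0 says little.

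The neighbours of the genes that moved did not all move with them. CLDN3 and CLDN4 lie 29.3 kb apart on chromosome 7 by their GENCODE spans, with no other gene of the table between them. The CLDN4 promoter window shown above is at its RefSeq start, which lies further from CLDN3. CLDN3 was at most 6.36 CPM in any library, also where CLDN4 was at 646 CPM. Of the other genes within 100 kb of CLDN4, METTL27, on the far side from CLDN3, rose in UPCI-SCC-090 to a mean of 1.66 CPM with JQ1 against 0.612 CPM with DMSO (log2 fold change 1.31, edgeR adjusted p = 0.014), and TMEM270 fell to 0.0572 CPM with JQ1 against 0.922 CPM with DMSO (−4.05, edgeR adjusted p = 0.0049). STX1A and ABHD11 were not called. NECTIN4 and F11R lie 49.7 kb apart on chromosome 1 with 4 genes between them. In UPCI-SCC-090 NECTIN4 rose and F11R was not called, while in UM-SCC-47 F11R rose and NECTIN4 was not called. ARHGAP30 and PFDN2, on either side of NECTIN4, rose in UPCI-SCC-090 as well, to means of 2.43 and 85.8 CPM with JQ1 against 0.656 and 29.8 CPM with DMSO (edgeR adjusted p = 0.016 and 0.0050). The other genes tested within 100 kb of NECTIN4, such as USF1, NIT1 and UFC1, were not called in this line. PFDN2 also rose in UM-SCC-47 (log2 fold change 0.60, edgeR adjusted p = 0.026), where NECTIN4 was not called. CLDN1 lies 408 kb from TP63, the gene of a master factor of squamous cells, with 1 gene between them, which is beyond the 100 kb used above. TP63 fell in UM-SCC-47 (−3.02 ± 0.28, edgeR adjusted p = 5.5e-04) and was not called in UPCI-SCC-090 (−1.43 ± 0.68, edgeR adjusted p = 0.18). A link of CLDN1 with TP63 was not tested.

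As a description of likeness, each gene's centred log2 CPM profile over the 12 libraries was compared with those of the 10720 genes averaging 5 CPM or more (10721 for CLDN3), by the root mean square difference. Nearest to CLDN4 were SLC2A1 (0.29 log2 units) and S100A13 (0.31), and nearest to NECTIN4 were ADSS1 (0.27) and NHERF1 (0.29). NECTIN1 had HOXA7 (0.22) and PLEKHG4 (0.23) nearest, and CLDN1 had ZNF365 (0.28) and RAB31 (0.37). CLDN7 had the closest match of all, TWF2 at 0.080. Among the 10 genes themselves OCLN and TJP1 (0.51), CLDN3 and CLDN7 (0.53) and CLDN12 and TJP1 (0.57) were the nearest pairs, and CLDN4 and NECTIN4 differed by 1.09. The points share libraries and therefore their depth and GC trends.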

How the data were processed

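Stranded, rRNA-depleted total RNA of 12 libraries, 3 per group, was quantified by the authors with Salmon, and the deposited table holds estimated counts per gene that need not be whole. Versions in the submitters' notes on processing are 0.8.2 for Salmon and 1.28.0 for DESeq2 (the study's methods name a different Salmon version), and neither transcript index nor build was given in the sources used here. Because reads of overlapping genes or gene copies are shared out by Salmon, F11R and OCLN are less certain. Totals were 20349275 to 30788657 estimated counts per library.

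Counts were rounded and tested with edgeR 4.0.16 (R 4.3.3, quasi-likelihood test, TMM scaling) on all genes passing filterByExpr (minimum count 10, minimum total 15), with Benjamini-Hochberg adjustment over all genes tested and a threshold of 0.05. The JQ1 response of each line was fitted on that line's 6 libraries, the lines on the 6 DMSO libraries, and the interaction on all 12. Standard errors came from the log2 fold change over the root of F. CPM were scaled over the 12 libraries. The fits were also run on simulated counts with the same biological variation for every gene and no GC trend. That check therefore does not cover the GC trends and the larger spread of the UPCI-SCC-090 libraries.

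Alternatives were RLE, upper-quartile and library size scaling, no filter, DESeq2 1.42.0, a replicate block, a GC correction, 1 fit over all libraries, leaving out the 3 libraries of steep GC trend and leaving out each replicate. Gene positions and lengths are from GENCODE 44 on GRCh37, which held 20015 of the 20738 IDs. All 10 genes are named. From the other lists, up to 3 called genes per direction and JQ1 comparison with the largest fold change and at least 5 CPM in the higher group are named, plus all genes of any count of 5 or fewer. Neighbouring genes were chosen after their values were seen. The 10 genes and the lists were chosen with earlier results of these data known.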

Additional observations from a re-analysis of the deposited data

Results flagged for a closer look

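The JQ1 response differed between the lines for CLDN4 and NECTIN4, by the test of the interaction of line and treatment. For CLDN4 the log2 fold change in UPCI-SCC-090 exceeded that in UM-SCC-47 by 2.45 (edgeR adjusted p = 0.0059). For NECTIN4 it did so by 2.13 (edgeR adjusted p = 0.012). In each case the 3 UPCI-SCC-090 libraries with JQ1 lay above the 3 with DMSO, and the UM-SCC-47 groups overlapped.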

How the results depend on the processing

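Of 12 calls among the 40 values of the 10 genes, 10 were made in every alternative and 2 were lost in 1 fit over the 12 libraries, which left 1 gene lower and 0 higher in UM-SCC-47 with JQ1. Over all genes, that fit had 2489 lower and 1348 higher in UM-SCC-47, against 3431 and 2163 in the fit as designed. No called value changed sign. With the GC correction 2 genes were higher in UM-SCC-47, the added one being CLDN7 (0.33, edgeR adjusted p = 0.043). Higher calls over all genes numbered 3238 with this correction, against 2163 without it. In UPCI-SCC-090, where 0 were lower, the count was 1 with library size only, 1 in 1 fit over the 12 libraries and 2 with the GC correction. It was 0 to 2 when 1 replicate was left out, with 2 (CLDN3 and NECTIN1) without UPCI-SCC-090 JQ1 replicate 2. Lower calls over all genes in this line also rose, from 2680 in the fit as designed. They numbered 3069 with library size only, 3227 in 1 fit over the 12 libraries and 3455 with the GC correction. Between the lines with DMSO, the GC correction gave 6 lower genes against 3, adding CLDN7, CLDN12 and TJP1, while over all genes the lower calls numbered 4546 against 3571 and the higher calls 4268 against 3207. The adjusted p of the differences reached at most 0.021 for CLDN4 and 0.040 for NECTIN4 over the 21 alternatives. Whether replicate numbers pair the libraries could not be settled. Deviations of same-numbered libraries correlated at −0.15 to 0.43 in UM-SCC-47 and 0.095 to 0.79 in UPCI-SCC-090. Those of differently numbered libraries correlated at −0.35 to 0.28 and −0.85 to 0.79, so the ranges overlapped. With a replicate block 1 gene, NECTIN1, was lower in UPCI-SCC-090 (−1.23), and with the GC correction and a replicate block 2 were lower there and 6 between the lines. Lower calls over all genes in UPCI-SCC-090 numbered 3141 with the block and 3647 with the block and the GC correction. Between the lines the latter setting had 4478. The cause of these shifts was not tested.

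Over all genes, the share of higher among called genes moved with the scaling. In UM-SCC-47 it was 38.7% with TMM, 48.0% with RLE, 24.1% with library size only and 50.6% with DESeq2. In UPCI-SCC-090 it was 27.4% with TMM, 42.3% with RLE, 17.1% with library size only, 38.3% with the GC correction, 39.7% with that and a replicate block, and 43.2% with DESeq2. The median log2 fold change of all genes was −0.03, 0.12 and −0.28 in UM-SCC-47 and −0.14, 0.14 and −0.38 in UPCI-SCC-090 with TMM, RLE and library size only. CLDN1 ranged from −1.11 to −0.69 and F11R from 0.44 to 0.91 in UM-SCC-47 over the alternatives.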
